A study of Mus musculus with 3 samples.

Results

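Genes that mark regulatory T cells or carry costimulatory signals to them were followed in single cells from a mouse model labelled non-small cell lung cancer. The 10 members were taken by name: the transcription factors Foxp3, Ikzf2 (Helios) and Ikzf4 (Eos), the interleukin 2 receptor chain Il2ra (CD25), the tumour necrosis factor (TNF) receptor family genes Tnfrsf4 (OX40), Tnfrsf18 (GITR) and Tnfrsf9 (CD137), the CD28 family receptor Icos, the chemokine receptor Ccr8 and the folate receptor family gene Izumo1r (FR4). They are 10 of the 32285 genes counted, and all of them were detected as UMIs, the molecular tags that let each captured transcript be counted once. Levels were taken in barcodes with at least 500 UMIs, at least 200 genes and at most 20% mitochondrial UMIs, 29513 in all.

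Each group was 1 library, labelled PBS, PD-L1 or AI-Exo. The labels used here do not spell these names out and give no strain, age, dose, cell sort or number of mice, and the series title speaks of exosomes that inhibit autophagy. Values given 3 in a row belong to PBS, then PD-L1, then AI-Exo. The libraries kept 9359, 9697 and 10457 barcodes, with medians of 4380, 3948 and 4425 UMIs, and pairs of libraries shared between 23 and 33 barcodes. With 1 library per group, no difference between the groups was tested, and square brackets hold 95% intervals for the error of counting alone. Differences between classes of cells were tested over the 3 libraries, with the library as a block. Those p-values measure how evenly a class difference recurred in these 3 libraries, which differ in label. Nothing says the libraries came from separate animals, so spread between animals is not measured. Immature T-lineage cells numbered 866, 862 and 6, so AI-Exo stood apart in these cells. CD4 T cells numbered 451, 403 and 561, and CD8 T cells 640, 515 and 771.

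Regulatory T cells restrain other immune cells and depend on the transcription factor Foxp3. They take up interleukin 2 through a receptor with the high-affinity chain Il2ra, and in tumours they often carry TNF receptor family members that signal through TRAF adaptors to NF-κB. Helper and cytotoxic T cells can also express Tnfrsf4, Tnfrsf18, Tnfrsf9 and Icos after activation, and group 2 innate lymphoid cells share several of these receptors.

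RefSeq promoter windows (GRCm38.p6) were found for 7 of the 10 members: Foxp3, Il2ra, Tnfrsf4, Tnfrsf18, Tnfrsf9, Ccr8 and Izumo1r. Foxp3 and Tnfrsf9 had 2 starts each, which made 9 windows. The 250 bases before the start are shown, on the plus strand, for Foxp3 and 4 of the receptors that were higher in Foxp3-positive cells, so that they can be compared. The windows are chrX:7580233-7580482 for the second Foxp3 start, chr2:11642542-11642791 for Il2ra, chr4:150927749-150927998 for the second Tnfrsf9 start, chr4:156026072-156026321 for Tnfrsf18 and chr4:156013445-156013694 for Tnfrsf4. Capitals mark matches to 5 motifs, searched on both strands: the STAT motif TTCNNNGAA, the NF-κB consensus, the AP-1 motif TGANTCA, the forkhead motif TGTTTAC and the TATA motif TATAAA.
Foxp3: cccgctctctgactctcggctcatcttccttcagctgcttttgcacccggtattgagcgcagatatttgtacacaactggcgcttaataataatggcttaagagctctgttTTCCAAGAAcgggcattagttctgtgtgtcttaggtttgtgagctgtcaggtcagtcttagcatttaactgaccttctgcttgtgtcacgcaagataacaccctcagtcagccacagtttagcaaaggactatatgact
Il2ra: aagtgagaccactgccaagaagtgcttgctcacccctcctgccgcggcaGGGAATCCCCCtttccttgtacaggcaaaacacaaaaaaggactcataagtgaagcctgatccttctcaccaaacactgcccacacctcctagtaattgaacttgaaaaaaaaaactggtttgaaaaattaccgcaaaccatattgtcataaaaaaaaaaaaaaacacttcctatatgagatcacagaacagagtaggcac
Tnfrsf9: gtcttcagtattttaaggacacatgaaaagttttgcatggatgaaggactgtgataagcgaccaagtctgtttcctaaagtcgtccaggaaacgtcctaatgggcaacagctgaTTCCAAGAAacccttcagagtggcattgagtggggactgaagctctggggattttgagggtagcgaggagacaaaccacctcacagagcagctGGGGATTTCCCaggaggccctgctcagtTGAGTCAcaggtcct
Tnfrsf18: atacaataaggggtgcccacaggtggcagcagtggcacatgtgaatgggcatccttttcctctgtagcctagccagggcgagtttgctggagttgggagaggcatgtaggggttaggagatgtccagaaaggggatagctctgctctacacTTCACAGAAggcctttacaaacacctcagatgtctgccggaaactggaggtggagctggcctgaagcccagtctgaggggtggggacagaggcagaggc
Tnfrsf4: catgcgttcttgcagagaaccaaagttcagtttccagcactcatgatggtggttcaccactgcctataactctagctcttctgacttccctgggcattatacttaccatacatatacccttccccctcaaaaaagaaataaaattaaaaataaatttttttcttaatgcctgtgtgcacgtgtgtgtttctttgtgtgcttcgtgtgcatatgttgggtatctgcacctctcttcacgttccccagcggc
The STAT motif was in 3 of the 9 member windows (Foxp3, Tnfrsf18 and Tnfrsf9) and in 7.02% of 32851 windows of the same length. The NF-κB consensus was in 2 (Il2ra, 201 and 200 bases before the start, and Tnfrsf9, 43 and 42 bases before it) and in 7.25% of all windows. The AP-1 motif was in 1 (Tnfrsf9, 15 bases before the start) and in 6.75%, the TATA motif in 1 (the first Foxp3 start) and in 12.4%, and the forkhead motif in 0 and in 3.17%. These are matches of letters, and binding was not measured. The windows of Ccr8, Izumo1r and the first Tnfrsf9 start, which are not shown, had no match to the 5 motifs.

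Foxp3 was detected in few cells, and most were T cells. It gave 332 UMIs in 200 of the 29513 barcodes. Of the 200, 62 were CD4 T cells, 54 were T cells without Cd4, Cd8a or Cd8b1 UMIs, 7 carried UMIs of both Cd4 and a CD8 chain, 5 were CD8 T cells and 7 were B cells. A further 49 barcodes carried markers of more than 1 lineage and were kept out of every class. No Foxp3 UMI was seen in 4522 neutrophils.

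In CD4 T cells the Foxp3-positive share was alike in the 3 libraries. It was 4.66% [2.91 to 7.03] of 451 cells, 4.22% [2.48 to 6.67] of 403 and 4.28% [2.76 to 6.30] of 561, from 21, 17 and 24 positive cells. The 3 intervals overlapped, and the Foxp3 level did as well, at 14.7 CPM (counts per 1000000 UMIs of the class) [10.1 to 20.6], 16.9 [11.8 to 23.5] and 13.5 [9.91 to 18.1]. The median depth of these CD4 T cells was 4209, 4503 and 4824 UMIs. Thinned to 1000 UMIs each, the shares were 1.79% of 448 cells, 0.746% of 402 and 0.893% of 560, resting on 8, 3 and 5 cells. In B cells, which should lack Foxp3, the share was 0.230%, 0.0531% and 0.101% at median depths of 3193, 3563 and 3796 UMIs. In T cells without Cd4 or CD8 UMIs it was 1.86%, 3.94% and 3.10%, and with these cells added to the CD4 T cells the share was 3.01% [2.08 to 4.21], 4.06% [2.90 to 5.51] and 3.65% [2.66 to 4.86]. Fewer cells and less Foxp3 RNA per cell cannot be told apart in these shares.

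**Figure D1:**
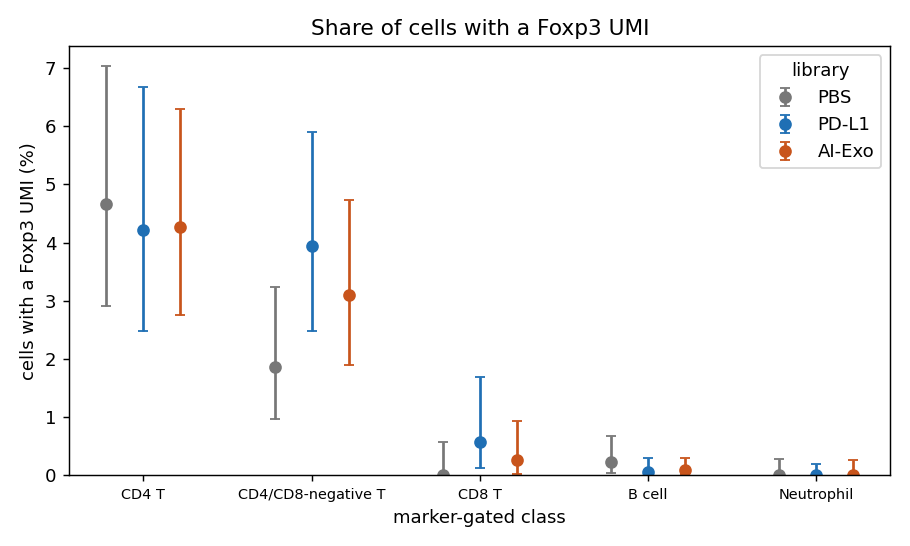
Percent of cells with at least 1 Foxp3 UMI in 5 classes (x axis) and 3 libraries (colours), with 95% Clopper-Pearson intervals that cover counting error only. CD4 T cells lie between 4.22% and 4.66% in the 3 libraries, and neutrophils are at 0.

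The other 9 members were compared between Foxp3-positive and Foxp3-zero CD4 T cells of the same library, which asks which of them travel with Foxp3. A cell without a Foxp3 UMI may still express Foxp3, since few UMIs of it were caught. By edgeR's quasi-likelihood test with the library as a block, 7 of the 9 were higher in Foxp3-positive cells and none lower, against 1.87% of 8121 tested genes higher and 1.49% lower (3.36% in either direction). The 7 were Tnfrsf9, Ikzf2, Il2ra, Tnfrsf4, Ccr8, Tnfrsf18 and Izumo1r. For 8 of the 9 members, all but Icos, the 3 Foxp3-positive values lay above the 3 Foxp3-zero values, as 13.4% of the tested genes did, while 11.2% did the reverse.

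Ikzf2, a partner transcription factor of Foxp3, was the most abundant member. Its level in Foxp3-positive cells was 1617 CPM [1437 to 1815], 1578 [1376 to 1802] and 1643 [1480.4 to 1819]. In Foxp3-zero cells it was 119 [105 to 135], 299.8 [276 to 325] and 274 [256 to 293]. The positive cells were high in each library with no overlap, and edgeR gave a log2 fold change of 2.82 (SE 0.23, adjusted p = 0.000113). Ikzf4, its relative, was scarce, at 33.5, 57.7 and 48.7 CPM in positive cells, from 6, 8 and 11 UMIs, and at 13.1, 21.7 and 10.1 CPM in Foxp3-zero cells. The groups did not overlap, but the edgeR fold change of 1.62 (SE 0.41) had an adjusted p of 0.0546.

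Il2ra, the chain that gives the interleukin 2 receptor its high affinity, stood at 357 CPM [275 to 456], 144 [88.0 to 223] and 182 [130.3 to 246] in positive cells. In Foxp3-zero cells it stood at 24.7 [18.4 to 32.4], 18.6 [13 to 25.8] and 57.7 [49.6 to 66.7]. PBS was highest among the positive values and AI-Exo among the Foxp3-zero values, and the edgeR log2 fold change was 2.69 (SE 0.37, adjusted p = 0.00352).

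All 3 TNF receptor family members were higher in Foxp3-positive cells. Tnfrsf9 had the largest fold change of the 9 members, with 608 CPM [499 to 733], 339 [248.9 to 450.5] and 447 [364 to 544] in positive cells. Its Foxp3-zero values were 54.7, 44.5 and 75.4 CPM, and edgeR gave 2.90 on the log2 scale (SE 0.23, adjusted p = 0.000113). Tnfrsf4 read 970.4 CPM [832 to 1126], 670.3 [541 to 821] and 425 [344 to 519] in positive cells. It read 106, 94.6 and 139.7 CPM in Foxp3-zero cells, and the log2 fold change by edgeR was 2.46 (SE 0.27, adjusted p = 0.000745). Tnfrsf18 differed less, with 424 [334 to 531], 454 [349 to 581] and 354 CPM [281 to 441] against 122, 96.1 and 134 CPM, and an edgeR log2 fold change of 1.72 (SE 0.21, adjusted p = 0.00138). Positive cells were above Foxp3-zero cells in every library for these 3 receptors, and the positive Tnfrsf4 values were the ones that spread most between libraries.

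Icos, which is induced on activated T cells of many kinds, did not separate the 2 groups. It was 245 CPM [178 to 329] in positive against 292 [269 to 317] in Foxp3-zero cells of PBS, 368 against 348 in PD-L1 and 465 against 344 in AI-Exo. The values overlapped, and edgeR gave a log2 fold change of 0.03 (SE 0.19, adjusted p = 0.965). Izumo1r read 218 CPM [155 to 297], 309.9 [224 to 417] and 133 [89.7 to 189.7] in positive cells against 51.3, 95.1 and 54.5 CPM, with an edgeR log2 fold change of 1.61 (SE 0.24, adjusted p = 0.00449). Without the PD-L1 library its adjusted p was 0.0613, and with positive cells defined by at least 2 Foxp3 UMIs it was 0.147. Ccr8 was near its limit of detection, with 8, 6 and 6 UMIs in positive cells (44.6, 43.2 and 26.6 CPM) against 8.71, 11.9 and 7.25 CPM. In AI-Exo, 5 of those 6 UMIs came from 1 cell. Its edgeR log2 fold change of 1.95 (SE 0.48) had an adjusted p of 0.0479, which rose to 0.188 without PBS, 0.156 without PD-L1 and 0.122 without AI-Exo.

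**Figure D2:**
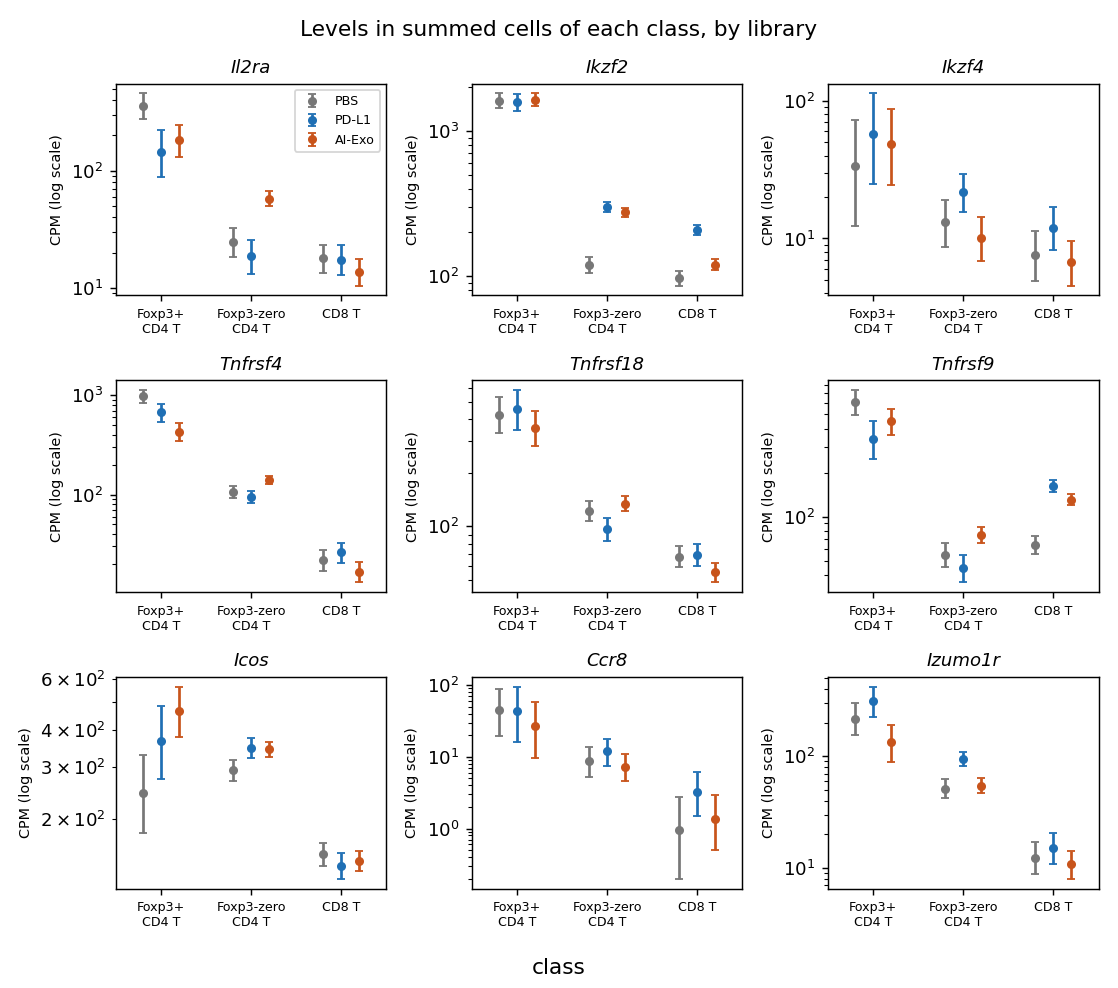
Levels of 9 members (panels) in Foxp3-positive CD4 T cells, Foxp3-zero CD4 T cells and CD8 T cells (x axis) of the 3 libraries (colours), as CPM on a log axis with 95% Poisson intervals that cover counting error only. All panels but that of Icos show the 3 Foxp3-positive points above the 3 Foxp3-zero points.

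Other measures moved with the Foxp3-positive class. Its cells were deeper, with medians of 5865, 6678 and 6088 UMIs against 4186, 4482 and 4812 in Foxp3-zero cells. Dividing cells, those with UMIs of at least 2 of 6 division markers, made up 33.3%, 11.8% and 16.7% of the positive cells. These were 7, 2 and 4 cells, with intervals of [14.6 to 57.0], [1.46 to 36.4] and [4.74 to 37.4]. In Foxp3-zero cells the shares were 4.42% [2.68 to 6.81], 4.66% [2.79 to 7.27] and 10.8% [8.30 to 13.7]. The intervals of the 2 classes overlapped in PD-L1 and AI-Exo, and the shares were not taken at equal depth. Of the 6 markers, 5 were higher in positive cells, and their summed level was 1004, 476 and 1285 CPM against 372, 151 and 496 CPM. With dividing cells left out, 6 of the 9 members were still higher by edgeR, at log2 fold changes of 3.39 for Tnfrsf9, 3.05 for Ikzf2, 2.81 for Il2ra, 2.58 for Tnfrsf4, 2.08 for Izumo1r and 1.95 for Tnfrsf18. Ccr8 then had an adjusted p of 0.0590. The 7 markers of group 2 innate lymphoid cells summed to 758, 944 and 1028 CPM in positive against 502, 403 and 568 CPM in Foxp3-zero cells. Of 3 that could be tested, Areg was higher, Rora and Gata3, which T cells also express, did not pass, and Il5 and Calca were at 0 in the positive cells of every library. The 9 B cell markers summed to 245, 223 and 328 CPM in positive and 120.5, 119 and 126 CPM in Foxp3-zero cells. Most of that was the immunoglobulin gene Ighm, the 1 marker that could be tested, at 229, 209 and 306 CPM against 114, 105 and 108 CPM. It was higher by edgeR (log2 fold change 1.11, adjusted p = 0.0150), but not without PD-L1 or without AI-Exo, and Ms4a1 and Pax5 were at 0 in the positive cells of every library. The part of these markers in the results was not tested. Monocyte markers summed to 83.7, 173 and 137 CPM against 316, 209 and 191 CPM, with Vcan at 0 in the positive cells.

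Across all genes the comparison called 152 higher and 121 lower in Foxp3-positive cells. The counts were 28 and 28 without the PD-L1 library and 93 and 71 without AI-Exo. Apart from the members, the genes with the largest rises, alike in direction in all 3 libraries, included both chains of an integrin that activates transforming growth factor beta. Itgb8 was at 66.9, 129.7 and 208 CPM in positive against 4.84, 8.79 and 11.7 CPM in Foxp3-zero cells, and edgeR gave a log2 fold change of 3.89 (SE 0.32, adjusted p = 0.000113). Itgav was at 848, 771 and 1001 CPM against 146, 181 and 248.8 CPM, with an edgeR log2 fold change of 2.13 (SE 0.17, adjusted p = 0.000113).

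Further genes of that group were the histone genes Hist1h2ab (2.64) and Hist1h3c (2.61), the unconventional myosin Myo1e (2.68), the costimulatory ligand Cd80 (2.27), Neb (2.22), the lipid transporter Abca1 (2.21) and the growth factor Areg (2.08), all as log2 fold changes from edgeR. Fibronectin, Fn1, had the largest value, 4.51, but its positive levels of 72.5, 382 and 22.1 CPM differed widely between libraries. Lowest in Foxp3-positive cells were Ly6c1 (-4.77), Dapl1 (-3.98), the helper T cell ligand Cd40lg (-3.93), Hs3st3b1 (-3.91) and the complement regulator Cd55 (-3.89). Cd40lg was at 5.58, 21.6 and 4.43 CPM in positive and at 169.8, 136 and 106 CPM in Foxp3-zero cells. Many of these calls did not pass with 1 library left out. Such a fit has fewer sums to test, so a lost call does not show that it rested on that library. Without PD-L1 the log2 fold changes were smaller in size for Fn1 (3.09), Cd80 (1.72), Abca1 (1.996), Areg (1.08) and Ly6c1 (-4.21). Those of Hs3st3b1 (-4.42) and Cd55 (-4.37) were larger in size. Without PD-L1 the edgeR adjusted p was 0.0548 for Fn1, 0.147 for Cd80, 0.178 for Abca1, 0.156 for Areg, 0.0676 for Ly6c1 and 0.0671 for both Hs3st3b1 and Cd55. Neb did not pass without PBS (0.0532) or without AI-Exo (0.272), and Abca1 did not without AI-Exo (0.148) and had a log2 fold change of -0.53 with classes from clustering. Itgb8, Itgav, Myo1e, Hist1h2ab, Hist1h3c, Dapl1 and Cd40lg passed with each library left out. The 2 histone genes had no value with dividing cells left out, so the part of dividing cells in their rise was not tested.

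Gene lists around the members gave a mixed picture. Of 24 other regulatory T genes, 18 could be tested, 5 were higher and 1 lower, with a median log2 fold change of 0.78 beside -0.02 over all genes. The 5 were Lrrc32, which presents latent transforming growth factor beta (2.92), Areg, the inhibitory receptors Ctla4 (1.63) and Tigit (1.59) and the actin-capping gene Capg (1.43). The transcription factor Ikzf1 was lower (-1.19, adjusted p = 0.00469 by edgeR). Of 12 genes of interleukin 2 signalling, all tested, the receptor chain Il2rb was higher (1.11, adjusted p = 0.0117 by edgeR) and none was lower. The common chain Il2rg had a value of -0.05 and the inhibitor Socs1, lowest of that list, -0.81, neither past the threshold. Ctla4 and Ikzf1 passed by edgeR with each library left out. Without PD-L1 the adjusted p was 0.0561 for Lrrc32, 0.0690 for Capg and 0.0787 for Il2rb, which had 0.0530 without PBS. Tigit did not pass without PBS (0.202), PD-L1 (0.149) or AI-Exo (0.177).

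Among 16 genes of TNF receptor and NF-κB signalling, Nfkb1 was higher (0.78, adjusted p = 0.0124 by edgeR) and none was lower, with a list median of 0.21. The extremes of that list, Bcl2l1 (1.16) and the kinase Map3k14 (-0.56), did not pass. Of 25 other TNF receptor family genes, 9 were abundant enough to test. Tnfrsf1b, the second TNF receptor, was higher (1.37, adjusted p = 0.0143 by edgeR), and Cd27 (0.26), Fas (0.04) and Tnfrsf23 (-0.86) did not pass. In the CD28 family and its B7 ligands, Cd80 and Ctla4 were higher and Cd28 lower (-0.77), of 6 tested. Naive T cell genes included 3 lower of 8, Tcf7 (-2.04), Lef1 (-1.51) and Klf2 (-1.27), and none higher. Of 7 tested genes of other helper T types, Cd40lg and the effector cytokine gene Ifng (-2.84) were lower and none was higher, with Cxcr3 at 0.63. Tcf7, Lef1, Cd40lg and Ifng passed by edgeR with each library left out. Tnfrsf1b did not pass without PBS (0.0647), PD-L1 (0.0561) or AI-Exo (0.0734), Nfkb1 without PD-L1 (0.136) or AI-Exo (0.0768), and Klf2 without PD-L1 (0.0561). Cd28 did not pass without PBS (0.168), without PD-L1 (0.175), without dividing cells (0.124) or with DESeq2 (0.110).

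The comparison of CD4 with CD8 T cells asks how far the members differ between these 2 classes. The CD4 sums include the Foxp3-positive cells, and Foxp3-zero cells alone were not tested against CD8 T cells. Il2ra, for example, was at 24.7, 18.6 and 57.7 CPM in Foxp3-zero and 17.8, 17.4 and 13.7 CPM in CD8 T cells. By edgeR, 9 of the 10 were higher in CD4 T cells and none lower, against 6.6% of 10297 tested genes higher and 4.36% lower (11% in either direction). The values of 9 members lay above all CD8 values, as for 13.5% of genes, and those of 0 lay below, as for 8.52%. Foxp3 had the largest log2 fold change, 3.86 (SE 0.47, adjusted p = 7.15e-05), from 33, 35 and 46 UMIs in CD4 and 0, 7 and 3 in CD8 T cells. Tnfrsf4 followed at 2.84 (SE 0.16), with 175, 133 and 159 CPM in CD4 against 22, 26.1 and 16.6 CPM in CD8 T cells. Icos, which did not separate the Foxp3 classes, was at 289, 349.7 and 352 CPM in CD4 against 151, 138 and 144 CPM in CD8 T cells (log2 fold change 1.15, SE 0.11, adjusted p = 1.1e-05 by edgeR). Markers of other cells moved as well. All 4 tested markers of group 2 innate lymphoid cells (Il1rl1, Areg, Rora and Gata3) were higher in CD4 T cells, and the 7 summed to 523, 439 and 598 CPM against 227, 236 and 271 CPM, with Il5 at 0 in CD4 T cells of PBS and PD-L1. All 3 tested NK markers (Klre1, Eomes and Klrb1c) and the monocyte markers Ly6c2 and Ms4a4c were lower, and their part was not tested.

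The log2 fold changes of the others were 2.60 for Ccr8, 2.53 for Izumo1r, 1.54 for Il2ra, 1.23 for Ikzf2, 1.08 for Tnfrsf18 and 0.92 for Ikzf4. Ikzf4 had an adjusted p of 0.0126, which was 0.127 without the library block and 0.290 with DESeq2, and it did not pass without PD-L1 or without AI-Exo. Tnfrsf9 was the exception, at 98.8, 64.2 and 100.1 CPM in CD4 and 64.0, 162 and 131 CPM in CD8 T cells. Its CD4 value was above the CD8 value in PBS and below it in PD-L1 and AI-Exo. In Foxp3-zero CD4 T cells alone it was at 54.7, 44.5 and 75.4 CPM, below CD8 T cells in each library. The edgeR log2 fold change of all CD4 against CD8 T cells was -0.41 (SE 0.23, adjusted p = 0.363). Without PBS it was -0.83 (adjusted p = 0.00037 by edgeR), and with classes from clustering -0.51 (adjusted p = 0.0423).

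**Figure D3:**
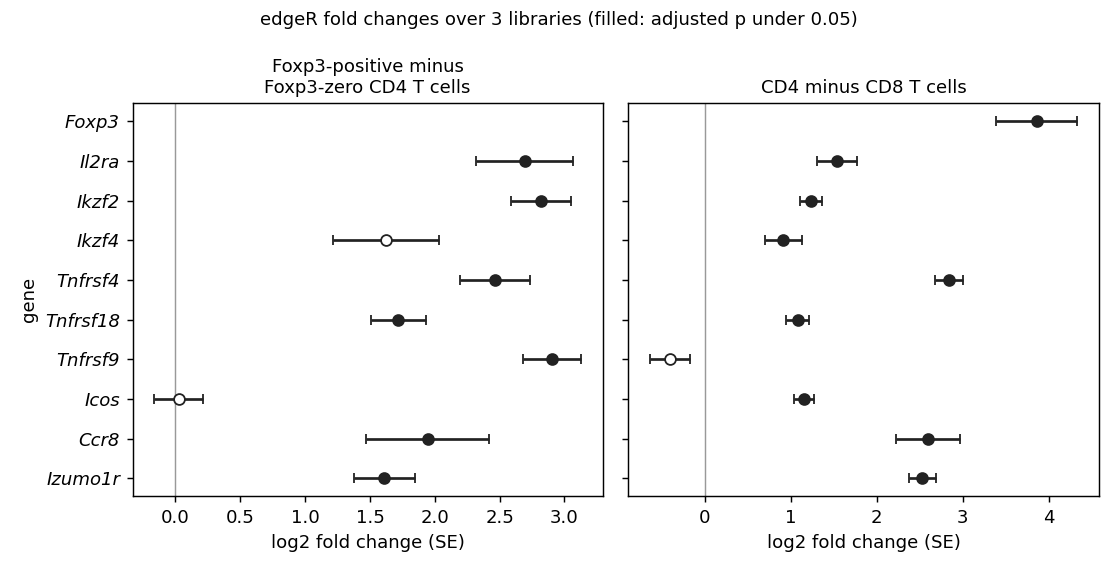
edgeR log2 fold changes with their SE (x axis) for the members (y axis) over 3 libraries, Foxp3-positive minus Foxp3-zero CD4 T cells on the left and CD4 minus CD8 T cells on the right, with filled points for an adjusted p under 0.05. Foxp3 defines the left comparison and is not drawn there. Icos lies at 0.03 on the left and 1.15 on the right, and Tnfrsf9 at 2.90 on the left and -0.41 on the right.

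Between libraries, the members were compared in size only, with a gene called higher or lower at 1.5 times on CPM plus 10 among genes with a mean of at least 10 CPM. The PD-L1 and AI-Exo comparisons share the PBS library. In Foxp3-positive CD4 T cells, PD-L1 against PBS had 1 of 9 members higher and 2 lower, where 22.1% of genes were higher and 25.5% lower. AI-Exo against PBS had 1 higher and 3 lower, where 18.1% and 21.2% of genes were. AI-Exo against PD-L1 had 0 higher and 2 lower, Tnfrsf4 (-0.64) and Izumo1r (-1.16), where 19.7% and 22% of genes were. With 17 to 24 cells a class the members moved about as often as genes at large.

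The Tnfrsf4 ratio of AI-Exo to PBS was 0.438 [0.338 to 0.565] and that of Il2ra was 0.509 [0.335 to 0.765] in Foxp3-positive cells. Those of PD-L1 to PBS were 0.557 [0.387 to 0.791] for Tnfrsf9 and 0.404 [0.231 to 0.676] for Il2ra. With classes from clustering the Il2ra log2 ratios went from -0.94 to -0.078 for AI-Exo and from -1.25 to -0.044 for PD-L1, both under the size that counts as a call. Icos went the other way, with a ratio of AI-Exo to PBS of 1.90 [1.32 to 2.76]. Single cells weighed heavily: 1 cell held 27.6% of the Tnfrsf4 UMIs in PBS, 50% of the Il2ra UMIs in PD-L1 and 41.5% in AI-Exo, 27.6% of the Icos UMIs in AI-Exo, 34.7% of the Tnfrsf9 UMIs in AI-Exo and 32.4% of the Ikzf2 UMIs in PD-L1. Ikzf2 had log2 ratios near 0 to PBS, but with dividing cells left out it read -1.44 for PD-L1 and -0.69 for AI-Exo. That left 14, 15 and 20 positive cells.

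In Foxp3-zero CD4 T cells, with 386 to 537 cells a library, fewer genes passed that size. PD-L1 against PBS had 2 of 9 members higher and 0 lower, where 1.92% of genes were higher and 2.43% lower. They were Ikzf2, with a ratio of 2.52 [2.17 to 2.94], and Izumo1r, with 1.85 [1.45 to 2.38]. AI-Exo against PBS had 2 of 8 higher and 0 lower, where 2.33% and 2.39% of genes were. They were Ikzf2, with 2.30 [2.0 to 2.67], and Il2ra, with 2.34 [1.71 to 3.26]. AI-Exo against PD-L1 had 2 of 8 higher, Il2ra (1.24) and Tnfrsf9 (0.65), and 2 lower, Ikzf4 (-0.66) and Izumo1r (-0.70), where 3.59% and 2.96% of genes were.

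The share of these cells with an Ikzf2 UMI was 18.4%, 26.7% and 31.8%, and 10.1%, 15.1% and 15.7% after thinning to 1000 UMIs. In neutrophils it was between 0.545% and 1.09%. The library ratios depended on how CD4 T cells were picked and on dividing cells. With T cells lacking Cd4 and CD8 UMIs added, the Ikzf2 log2 ratio went from 1.26 to 0.41 for PD-L1 and from 1.14 to 0.24 for AI-Exo, and that of Il2ra for AI-Exo from 0.97 to 0.64. With classes from clustering these 3 log2 ratios were 0.22, 0.15 and 0.40, all under the size that counts as a call. The Izumo1r log2 ratio for PD-L1 was 0.50 with the added cells and 0.45 with clustering, also under it. With dividing cells left out, that of Il2ra for AI-Exo was 0.47, under the size, and those of Ikzf2 were 1.03 and 0.79. Immature T cells also carry Ikzf2 (299 and 274 CPM in PBS and PD-L1). The 7 precursor markers summed to 50.3, 72.4 and 17.7 CPM in Foxp3-zero cells, with 6 of 7 detected in PBS and in PD-L1 and 4 of 7 in AI-Exo and Rag2 at 0 in each, and their part was not tested.

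In CD8 T cells, PD-L1 against PBS had 2 of 7 members higher and 0 lower, where 2.01% of genes were higher and 0.917% lower, and AI-Exo against PBS had 1 of 7 higher and 0 lower, where 3.21% and 1.96% of genes were. Tnfrsf9, a receptor induced on activated cytotoxic cells, was at 64.0 CPM [55.4 to 73.4], 162 [147 to 177] and 131 [120.4 to 142]. PBS was lowest, and the ratios to it were 2.53 [2.14 to 3.0] and 2.05 [1.74 to 2.41]. Ikzf2 was at 96.4, 207 and 119 CPM. Dividing cells were 3.28%, 7.77% and 14.7% of the CD8 T cells. With them left out the Tnfrsf9 log2 ratio went from 0.93 to 0.53 for AI-Exo, under the size, and from 1.22 to 1.14 for PD-L1. Between AI-Exo and PD-L1, 0 of 7 members were higher and 1, Ikzf2 (-0.75), was lower, where 0.881% and 1.48% of genes were.

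**Figure D4:**
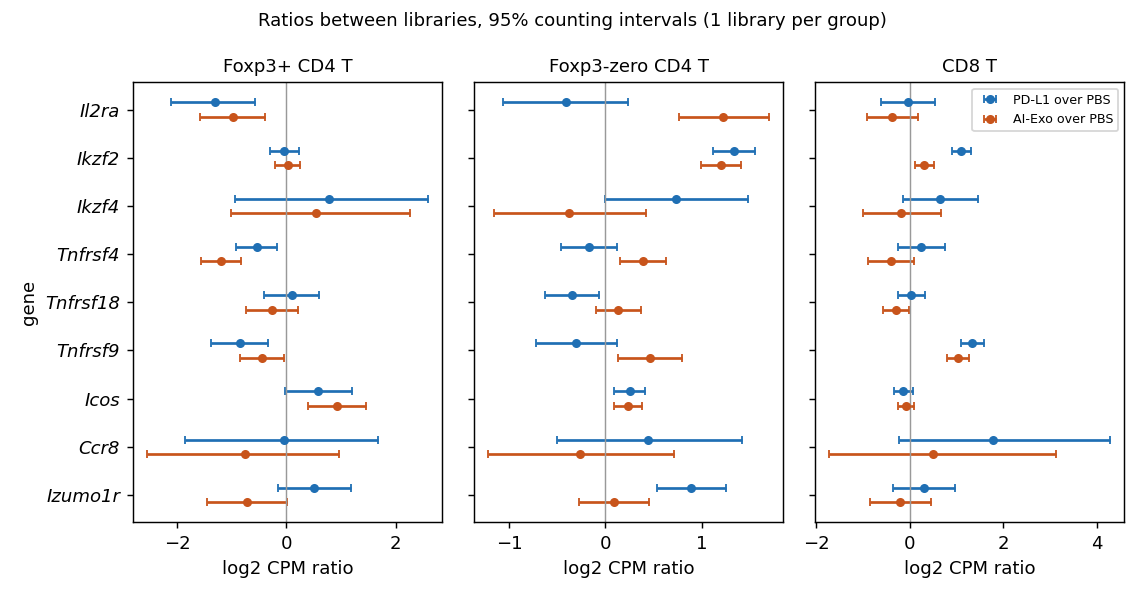
Log2 ratios of CPM, without a pseudocount, of PD-L1 over PBS and AI-Exo over PBS (colours) for 9 members (y axis) in 3 classes (panels), with 95% counting intervals; each panel has its own x axis. Both Ikzf2 points lie above 0 in Foxp3-zero CD4 T cells, and both Tnfrsf9 points lie above 0 in CD8 T cells.

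The members also met in the same cells. Of the other 9 members, Foxp3-positive CD4 T cells had UMIs of a median of 6 and Foxp3-zero cells of a median of 1. After thinning each cell to 1000 UMIs the medians were 2 and 0, and at least 3 of the 9 were seen in 46.8% of 62 positive and 4.90% of 1348 Foxp3-zero cells. The thinned share with an Ikzf2 UMI was 64.5% [51.3 to 76.3] against 13.7% [11.9 to 15.7], with a Tnfrsf4 UMI 38.7% [26.6 to 51.9] against 7.57% [6.21 to 9.11], and with an Icos UMI 30.6% [19.6 to 43.7] against 22.8% [20.6 to 25.2]. In thinned B cells these shares were 0.181%, 0.132% and 0.115%. The 54 Foxp3-positive T cells without Cd4 or CD8 UMIs gave 63.0% for Ikzf2 and 40.7% for Tnfrsf4, within the intervals of the CD4 T cells. At least 3 of the 9 were seen in 31.5% of them after thinning, against 46.8% of the positive CD4 T cells. These shares and intervals pool the cells of the 3 libraries.

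Outside CD4 T cells each member had its own distribution over classes. Foxp3 was highest in the 89 T cells with both Cd4 and CD8 UMIs (12.5 to 33.0 CPM) and next in CD4 T cells (13.5 to 16.9 CPM), ranges that overlap. In the order of mean levels over classes with at least 10 cells in a library, CD4 T cells led for Icos, ahead of T cells without Cd4 or CD8 UMIs (272 to 327 CPM) and of γδ T cells (205 to 317 CPM), and of group 2 innate lymphoid cells (194 to 302 CPM), with overlapping ranges. Izumo1r was at 59.8 to 109.5 CPM in CD4 and 10.8 to 15.2 CPM in CD8 T cells, with at most 0.752 CPM in B cells.

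Among the gated classes, with CD4 T cells not split by Foxp3, group 2 innate lymphoid cells had the highest mean levels of Il2ra, Tnfrsf18 and Ccr8. They numbered 17 to 23 cells a library. Il2ra was at 357 CPM [239 to 513], 269 [159 to 425] and 441 [312 to 605]. Tnfrsf18 was at 505 [362 to 685], 418 [278 to 604] and 337 CPM [225 to 483]. Foxp3-positive CD4 T cells had Il2ra at 357, 144 and 182 CPM and Tnfrsf18 at 424, 454 and 354 CPM, ranges that overlap these. Ccr8 was at 234 [141 to 365], 134 [61.4 to 255] and 139 CPM [72.0 to 243]. In every library that was above its level in all CD4 T cells (8.54 to 14.0 CPM) and in Foxp3-positive ones (26.6 to 44.6 CPM). For Il2ra, γδ T cells came next among the gated classes, with 65.0, 94.0 and 231 CPM, and AI-Exo was highest there.

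Mature dendritic cells (45 to 64 cells) carried Tnfrsf4 at 193, 153 and 109.6 CPM, a range that overlaps that of CD4 T cells (133 to 175 CPM). They also had Il2ra at 89.9, 83.9 and 136 CPM and Tnfrsf9 at 88.0, 102 and 187 CPM. In NK cells Tnfrsf9 was at 100.2 [77.0 to 128], 161 [134 to 192] and 190.1 CPM [173 to 208], and the lowest of these was PBS, as in CD8 T cells. B cells had 7.11 to 9.10 CPM of Il2ra and 10.4 to 13.4 CPM of Tnfrsf18.

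**Figure D5:**
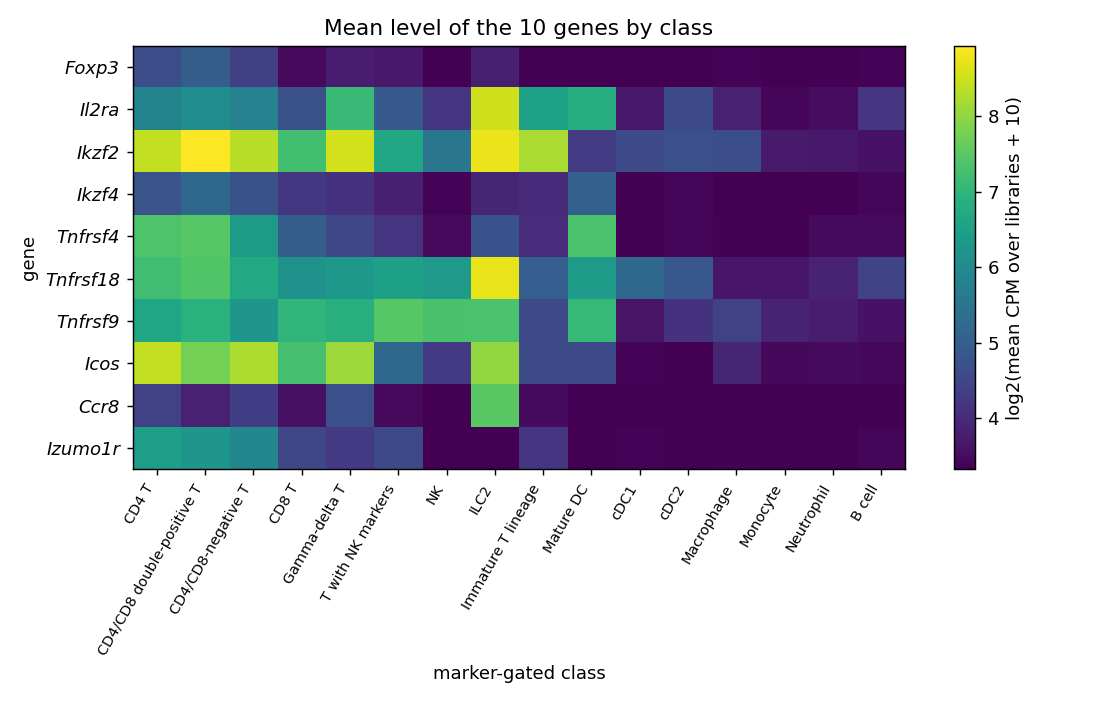
Mean CPM over the libraries with at least 10 cells of a class, plus 10, on a log2 colour scale, for the 10 members (y axis) in 16 marker-gated classes (x axis). Group 2 innate lymphoid cells (ILC2) stand out for Il2ra, Tnfrsf18 and Ccr8, and mature dendritic cells (DC) for Tnfrsf4, Tnfrsf9 and Il2ra among the myeloid classes.

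Among the 7 ligands, Tnfsf9 (0.96) and Il2 (-0.27) could be tested between Foxp3-positive and Foxp3-zero cells, and neither passed by edgeR. Tnfsf9, which binds Tnfrsf9, was at 224, 448 and 518 CPM in type 2 conventional dendritic cells and 215, 283 and 413 CPM in mature dendritic cells, and PBS was lowest in both. Icosl was at 119.9, 116.7 and 80.3 CPM in mature dendritic cells and at 48.6, 50.5 and 48.9 CPM in B cells. Tnfsf4, the ligand of Tnfrsf4, was highest in mature dendritic cells, at 11.2, 73.4 and 35.1 CPM from 6, 56 and 24 UMIs. Tnfsf18 was near 0, with 8.86 CPM in macrophages of PD-L1 as its highest macrophage value and 0 in those of PBS.

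Il2 was at 12, 15 and 5.30 CPM in CD4 T cells, and in Foxp3-positive cells it was seen in PD-L1, with 5 UMIs in 1 cell. Ccl1, a ligand of Ccr8, had no UMI in the 451 CD4 T cells of PBS, which allows a level of up to 1.34 CPM and a share of cells with a Ccl1 UMI, not of cells expressing it, of up to 0.665%. In PD-L1 it had 59 UMIs in 3 of 403 cells, and in AI-Exo 138 UMIs in 18 of 561, all in Foxp3-zero cells. Other classes of PBS did have Ccl1. It was at 4.77, 6.53 and 2.25 CPM in CD8 T cells. In T cells without Cd4 or CD8 UMIs it was at 5.87, 1.24 and 27.5 CPM. Group 2 innate lymphoid cells had 98.5, 29.8 and 186 CPM, from 8, 2 and 16 UMIs in 1, 2 and 2 cells. Ccl8, which also binds Ccr8 in mice, was at 392, 259 and 197 CPM in macrophages.

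Over 55 sums of a class and library with at least 20 cells, genes most like each member in level were named by Pearson's r of log2(CPM + 10), as a description. The points share libraries and cell lineage. Cd40lg led for both Foxp3 (0.82) and Izumo1r (0.94), followed by Ctla4 for Foxp3 (0.80) and Cd5 for Izumo1r (0.92). The sums do not split CD4 T cells by Foxp3. Within CD4 T cells Cd40lg was lower in the Foxp3-positive ones, with an edgeR log2 fold change of -3.93. The genes most like Ikzf2 were Lat (0.96) and Camk4 (0.95), and those most like Icos were Cxcr6 (0.93) and Tesc (0.93). For Tnfrsf4 they were Itgb8 (0.83) and Gpm6b (0.78), and for Tnfrsf18 Tespa1 (0.88) and Kdm2b (0.87). Tnfrsf9 was most like Ccl5 (0.86) and Sytl2 (0.84), Il2ra like Galnt12 (0.82) and Il7r (0.82), Ikzf4 like Gypc (0.81) and Tcf7 (0.79), and Ccr8 like Hormad2 (0.93) and Neb (0.87). Among the members the closest pairs were Ikzf2 with Icos (0.91) and Ikzf4 with Tnfrsf4 (0.91), and the loosest was Ikzf4 with Ccr8 (0.25).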

How the data were processed

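Droplet capture used 10x chemistry, per the labels' protocols. The authors deposited raw UMI counts per gene and barcode. Per the file headers Cell Ranger 7.1.0 wrote them, but version 3.0.2 stands in the submitters' processing notes. Genome build, introns and strand: not given in the sources used here.

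Barcodes were filtered as stated at the start of the results. Cells were classed by how many markers of each lineage they carried, with none of the 10 genes among them, and T cells by UMIs of Cd4, Cd8a and Cd8b1. Barcodes with markers of more than 1 lineage were left out as possible doublets. The Scrublet automatic threshold marked 1, 0 and 0 barcodes and so had not worked. Levels were summed per class and library.

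edgeR 4.0.16 (quasi-likelihood, TMM, library block, Benjamini-Hochberg adjustment, threshold 0.05, R 4.3.3) tested summed counts over the 3 libraries. Foxp3 was left out of the test of its own classes, and Cd4, Cd8a and Cd8b1 of the other. On simulated counts of 8121 genes, 22% of 2-fold and 78% of 4-fold changes were recovered for the Foxp3 comparison. For CD4 against CD8, with 10297 genes, the shares were 83% and 99%. DESeq2 1.42.0 was an alternative. Clustering (scanpy 1.11.5) was used as an alternative only. It was changed to an exact neighbour search after results were seen, because an approximate search gave other clusters in another computing setting, so values from clusters are the least stable here.

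Genes named beyond the members were the 10 largest and 5 smallest changes of the same direction in all libraries at 50 CPM or more, the extremes of each list, the ligands, and the 2 genes most like each member. Mitochondrial, ribosomal, globin and antigen receptor genes, Xist, Y genes and unnamed gene models could not be among the 10, the 5 or the genes most like a member. Other genes in the text, such as further list members past the threshold, were chosen after their values were seen. A gene that the rule named, an extreme of a list and not among the 10 or the 5, is not reported here. The members, lists and tests were chosen with earlier results of these data known, and the gate thresholds after seeing marker counts.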

Additional observations from a re-analysis of the deposited data

Results flagged for a closer look

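Icos moved in opposite directions between Foxp3-positive and Foxp3-zero CD4 T cells of different libraries. The log2 ratio of positive over zero, on CPM plus 10, was -0.24, 0.075 and 0.42 for PBS, then PD-L1, then AI-Exo, and the difference between libraries was not tested. The counting intervals of the 2 classes overlapped in PBS (178 to 329 against 269 to 317 CPM), and in AI-Exo 1 cell held 29 of the 105 Icos UMIs of the positive cells.

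Il2ra differed from PBS in opposite directions in 2 classes of the AI-Exo library. Its log2 ratio of AI-Exo over PBS was 0.97 in Foxp3-zero and -0.94 in Foxp3-positive CD4 T cells, and this was not tested. With classes from clustering the values were 0.40 and -0.078, and without dividing cells the Foxp3-zero value was 0.47, all under the size that counts as a call.

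Tnfrsf9 did so in the PD-L1 library, with log2 ratios of PD-L1 over PBS of 1.22 in CD8 T cells and -0.83 in Foxp3-positive CD4 T cells, also not tested. The Foxp3-positive value came from 17 PD-L1 and 21 PBS cells, where 25.5% of genes were called lower. In CD8 T cells 2.01% of genes were called higher. With dividing cells left out the Foxp3-positive value was -1.66, from 15 PD-L1 and 14 PBS cells.

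Foxp3 was found in barcodes with markers of more than 1 lineage, which no comparison used. The Foxp3-positive share of these was 1.08% of 1017 (PBS), 1.65% of 1029 (PD-L1) and 1.73% of 1216 (AI-Exo). These barcodes were deep, with medians of 12396, 11165 and 13406 UMIs. Their Foxp3 level was 1.07 CPM [0.622 to 1.71], 1.43 [0.899 to 2.17] and 2.13 [1.54 to 2.87]. The bound on free RNA in a class is drawn from markers of other lineages. Mixed barcodes were picked for carrying such markers, so their bound came to 62.9%, 100% and 67.4% of UMIs. It cannot tell whether this Foxp3 was free RNA, and that was not tested.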

How the results depend on the processing

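Depth, cell number and 1 library per group limit these results. The Foxp3-positive class held 17 to 24 cells a library and the thinned shares rested on 3 to 8 cells. The Foxp3-positive share of CD4 T cells was 2.0%, 1.74% and 2.5% with at least 2 Foxp3 UMIs required, and 1.79%, 0.746% and 0.893% after thinning. It stayed within the main intervals under the other 6 settings.

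In the Foxp3 comparison, without a replicate block (the library term) 134 genes were higher and 111 lower. Leaving out each library gave 28 to 130 higher and 28 to 86 lower. Classes from clustering gave 362 and 264, adding T cells without Cd4 or CD8 UMIs 440 and 321, leaving out dividing cells 86 and 47, no low-count filter 240 and 408, and DESeq2 123 and 61, while 2 Foxp3 UMIs gave 171 and 197. Members higher stayed at 5 to 8 under all 14 settings, and Ikzf2, Il2ra, Tnfrsf4, Tnfrsf18 and Tnfrsf9 passed in each. Ccr8 passed in 6 and Ikzf4 in 3. Changes of sign were met for genes that did not pass, and for Abca1 (-0.53 with classes from clustering). They included Cxcr3 (-0.45 with clustering, -1.69 without dividing cells), Icos (-0.27 with 2 Foxp3 UMIs, -0.13 without the filter), and Il2 (0.51 without dividing cells). When 1 library was left out, Icos ranged from -0.19 to 0.185, Il2 was 0.49 without PBS and 0.118 without AI-Exo, and Tnfsf9 ranged from -0.42 to 1.54.

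In CD4 against CD8 T cells, counts were 1694 and 1835 with clustering (1 member lower), 306 and 225 with DESeq2, 376 and 241 without the replicate block, and 218 to 793 higher and 177 to 544 lower without 1 library. Members lower ranged from 0 to 1 then, and Tnfrsf9 from -0.83 to 0.0266.

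For ratios to PBS in Foxp3-zero cells, members higher were 0 (PD-L1) and 0 (AI-Exo) with clustering, 0 and 1 with the unmarked T cells added, and 1 for AI-Exo without dividing cells, where 0.697% to 1.77% of genes were. In Foxp3-positive cells without dividing cells, PD-L1 had 0 higher and 4 lower of 9, where 23.6% and 27.8% of genes were, and AI-Exo had 5 lower, where 28.8% were. With clustering PD-L1 had 1 lower, where 21.5% were. In CD8 T cells AI-Exo had 2 higher with clustering and 0 without dividing cells, where 2.59% and 1.18% were. The cause of these shifts was not tested. The settings on dividing cells and on unmarked T cells were chosen after seeing the data.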
